A study of Mus musculus with 8 samples.

Results

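The enzymes that make deoxynucleotides and pyrimidines were followed through 9 genes: the ribonucleotide reductase subunits *Rrm1*, *Rrm2* and *Rrm2b*, the thymidylate and deoxyuridylate enzymes *Tyms*, *Tk1* and *Dut*, the salvage kinase *Dck*, and the de novo pyrimidine enzymes *Cad* and *Umps*. They were chosen by name as a list of nucleotide synthesis enzymes, and all 9 were found among the 27179 genes of the count table and passed the filter on low counts. RNA was sequenced from early LPre-B cells (large pre-B cells sorted as lineage-negative, B220+, surface IgM-, CD43+, large and CD2-) and sPre-B cells (small pre-B cells sorted as CD43 low, small, CD25+ and CD2+) of mouse bone marrow. The mice were Ctrl/IghB1-8hi (*Upf1* Flox/Flox and *Igh* B1-8hi/+, with *Mb1* +/+) and cKO/IghB1-8hi (the same alleles, with *Mb1* Cre/+), with 2 libraries in each of the 4 groups. All groups thus carried the floxed *Upf1* alleles and 1 knocked-in, already rearranged heavy chain allele, while Mb1-Cre, a B-lineage Cre inserted in *Cd79a*, was present only in cKO, so that loss of UPF1, an RNA helicase of nonsense-mediated decay, cannot be told apart from Cre or from the *Cd79a* insertion. Mice of both sexes on a C57BL/6 background were age-matched at 8 to 16 weeks.

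Cells that copy their DNA need a balanced supply of all deoxynucleotides. Ribonucleotide reductase makes them from ribonucleotides with a large subunit (RRM1) and a small subunit, which is RRM2 in S phase and RRM2B, a p53 target, outside S phase and after DNA damage. De novo pyrimidine synthesis (CAD, UMPS) feeds this route with UMP, DUT and TYMS turn deoxyuridine nucleotides into thymidylate, and TK1 and DCK salvage ready-made nucleosides. Large pre-B cells divide under pre-B cell receptor and IL-7 signals, and small pre-B cells leave the cell cycle to rearrange their light chain genes.

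The libraries held 68516857 to 160426338 counts, and 3 counts, taken as the smallest level that could be shown, corresponded to 0.0187 to 0.0438 CPM (counts scaled to library size with TMM factors, counting error only). The gene-level *Upf1* count, which rests mostly on exons outside the floxed ones, was 213 to 237 CPM in early LPre-B and 186 to 198 CPM in sPre-B cells of Ctrl and 244 to 258 and 282 to 293 CPM in those labelled cKO, so that it does not check the label. *Cd79a*, which holds Mb1-Cre, was at 160 to 188 CPM in early LPre-B and 325 to 405 CPM in sPre-B libraries labelled cKO, below both Ctrl libraries of the same stage (at least 543 and 1478 CPM). Both Ctrl replicate 2 libraries held at most 304 counts of *Xist*, against at least 290740 in the other 6, and were the only ones with Y-linked transcripts above 34 counts. The stage markers mostly followed the gates: *Vpreb1* and *Igll1*, which encode the surrogate light chain, were at 120 to 338 CPM in early LPre-B and at most 10.3 CPM in sPre-B cells, and *Cd2* and *Il2ra* (CD25) were higher in every sPre-B library. *Spn* fell towards the sPre-B stage in each genotype. *Kit* fell in Ctrl (Log2FC −3.47), while its fall in cKO did not pass edgeR's quasi-likelihood test (Log2FC −1.13, adjusted P = 0.0536). All 12 markers of cycling cells (among them *Mki67*, *Pcna*, *Top2a* and *Cdk1*) fell between the stages in each genotype. Their summed level was 10497 and 11102 CPM in Ctrl early LPre-B, 7345 and 7726 in early LPre-B labelled cKO, 1615 and 863 in Ctrl sPre-B and 1562 and 1841 CPM in sPre-B cells labelled cKO. The 8 myeloid markers, none of which was at 0, summed to 111 to 134 CPM in Ctrl and 50.1 to 55.6 CPM in cKO early LPre-B cells and to 304 to 355 and 211 to 243 CPM in sPre-B cells, and 4 of them in Ctrl and 6 in cKO were higher in sPre-B cells. Most of that sum was *Itgam*, with *Lyz2* between 4.25 and 26.2 CPM. The 7 T and NK cell markers summed to at most 4.30 CPM (*Cd3g* at 0 in both Ctrl replicate 2 libraries), the 7 erythroid and megakaryocyte markers measured to 368 to 529 CPM, nearly all from *Tfrc*, and the 4 plasma cell markers to 96.0 to 178 CPM. What part any of these has in the results was not tested.

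The promoters of the 4 members that fell most between the stages in Ctrl are shown first, since the E2F and NF-Y factors that act at such sequences are known for cell cycle genes. RefSeq promoters (GRCm38.p6, the build named mm10, from 250 bases before the start site to 50 after it) matched 8 of the 9 members, all but *Rrm2b*. Capitals mark CCAAT (the NF-Y box) and 4 E2F words, on either strand. The E2F words were TTCCCGC and the variant TTGGCGC, besides the word TTCGCGC and the variant TTGCCGC. The variant TTGGCGC can share letters with an inverted NF-Y box, and no match does so here. The sequences run 5′ to 3′ on the gene's strand, from chr7:102441445-102441744 (plus) for *Rrm1*, chr12:24708004-24708303 (plus) for *Rrm2*, chr5:30073576-30073875 (minus) for *Tyms* and chr2:125247265-125247564 (plus) for *Dut*.
Rrm1: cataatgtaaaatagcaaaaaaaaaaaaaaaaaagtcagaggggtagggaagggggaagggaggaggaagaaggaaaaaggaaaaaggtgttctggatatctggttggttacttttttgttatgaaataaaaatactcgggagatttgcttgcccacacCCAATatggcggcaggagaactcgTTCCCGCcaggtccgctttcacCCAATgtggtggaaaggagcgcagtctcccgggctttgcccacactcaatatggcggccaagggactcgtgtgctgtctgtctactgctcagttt
Rrm2: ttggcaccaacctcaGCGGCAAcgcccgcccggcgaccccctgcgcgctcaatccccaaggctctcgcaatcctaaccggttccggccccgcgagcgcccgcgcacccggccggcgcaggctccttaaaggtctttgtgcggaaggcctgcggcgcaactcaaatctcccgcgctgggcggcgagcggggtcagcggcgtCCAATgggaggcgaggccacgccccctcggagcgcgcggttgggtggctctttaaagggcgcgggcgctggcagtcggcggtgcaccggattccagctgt
Tyms: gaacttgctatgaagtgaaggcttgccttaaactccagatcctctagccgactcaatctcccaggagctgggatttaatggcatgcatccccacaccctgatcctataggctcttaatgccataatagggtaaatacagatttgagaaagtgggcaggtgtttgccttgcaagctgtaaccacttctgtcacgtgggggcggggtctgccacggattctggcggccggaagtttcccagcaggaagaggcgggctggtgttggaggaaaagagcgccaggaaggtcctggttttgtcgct
Dut: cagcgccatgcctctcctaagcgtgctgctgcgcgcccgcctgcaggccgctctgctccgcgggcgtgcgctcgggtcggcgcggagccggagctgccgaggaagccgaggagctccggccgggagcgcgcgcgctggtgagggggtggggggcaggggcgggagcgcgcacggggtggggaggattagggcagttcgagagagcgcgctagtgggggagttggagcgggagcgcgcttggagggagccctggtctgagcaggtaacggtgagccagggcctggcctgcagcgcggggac
An E2F word was found in 3 of the 8 promoters (*Rrm1*, *Rrm2* and *Cad*) and in 9.57% of the 32851 RefSeq promoters of that length. CCAAT was found in *Rrm1* (2 times) and *Rrm2*, that is in 2 of 8, against 37.4% of all promoters. *Tyms* held the E-box CACGTG, starting 61 bases before the start site, which 7.15% of all promoters hold, and the *Dut* window held none of the words searched. TTTGAA or TTCGAA, the words of the CHR element of cell cycle genes, were found in *Dck* and *Umps* and in 19.2% of all promoters. The windows follow RefSeq start sites, which for *Dut* and *Cad* lie 267 and 160 bases inside the gene's annotated span, so that the *Dut* window begins within the gene and the bases before its outermost start were not searched. A match describes these letters and is no evidence of binding.

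The first question was how the 9 genes changed as Ctrl cells passed from the dividing to the resting stage. In Ctrl 8 of the 9 fell and 1, *Rrm2b*, rose towards the sPre-B stage (adjusted P under 0.05, edgeR's quasi-likelihood test), against 31.1% of all 17700 genes tested that were lower and 29.1% that were higher. In the cells labelled cKO the same count was found, 8 lower and 1 higher, against 31.1% and 31.6% of all genes. The median Log2FC of the 9 was −2.43 in Ctrl and −2.19 in cKO, beside medians over all genes of 0.02 and 0.05. In bulk RNA, fewer cells that express a gene and less RNA per cell cannot be told apart.

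**Figure D1:**
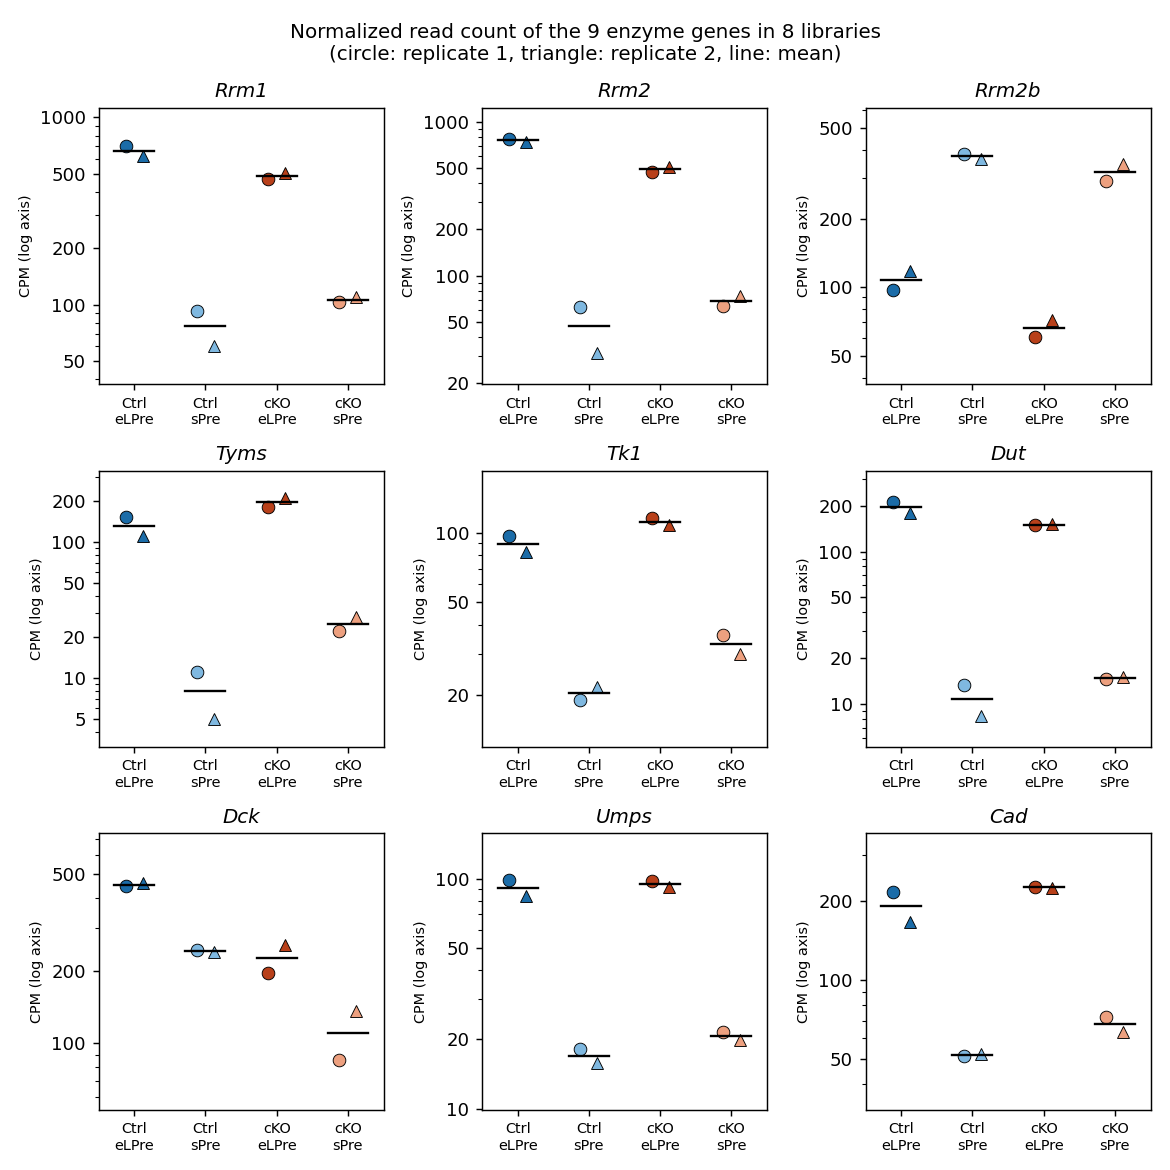
Normalized read count (CPM, log axis, a separate scale for each gene) of the 9 genes in the 8 libraries, with replicate 1 as circles, replicate 2 as triangles and the mean of each group as a line. Each gene but *Rrm2b* is lower in sPre-B (light colours) than in early LPre-B cells (dark colours) of the same genotype, and *Rrm2b* is higher.

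The 2 small subunit genes of ribonucleotide reductase changed in opposite directions between the stages, and the large subunit gene fell. *Rrm1* (Entrez 20133, chromosome 7, 102441695 to 102469771, 19 exon blocks) encodes the catalytic large subunit. Its level in replicates 1 and 2 was 706 and 620 CPM in early LPre-B and 92.6 and 60.4 CPM in sPre-B cells of Ctrl. It was 468 and 502 CPM in early LPre-B and 103 and 110 CPM in sPre-B cells labelled cKO. The libraries of the 2 stages were well apart in each genotype, and *Rrm1* fell 8.67-fold in Ctrl (Log2FC −3.12, SE 0.20, adjusted P = 4.24e-06) and 4.56-fold in cKO (Log2FC −2.19, SE 0.19, adjusted P = 2.08e-05). The order of its levels was Ctrl early LPre-B, cKO early LPre-B, cKO sPre-B and Ctrl sPre-B, and neighbours of the same stage did not pass the test (adjusted P = 0.0926 in early LPre-B and 0.0750 in sPre-B cells).

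*Rrm2* (Entrez 20135, chromosome 12, 24708254 to 24714146, 10 exon blocks) encodes the small subunit of S phase, whose protein is made and destroyed with each cell cycle. In Ctrl it was at 778 and 743 CPM in early LPre-B and at 62.4 and 31.6 CPM in sPre-B cells. Early LPre-B cells labelled cKO had 473 and 513 CPM, and sPre-B cells labelled cKO 63.4 and 73.9 CPM. *Rrm2* fell 16.2-fold in Ctrl (Log2FC −4.02, SE 0.29, adjusted P = 7.83e-06) and 7.18-fold in cKO (Log2FC −2.84, SE 0.28, adjusted P = 3.71e-05). The Ctrl sPre-B replicates differed 1.97-fold, and their cycling markers differed in the same direction.

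*Rrm2b* (Entrez 382985, chromosome 15, 37923952 to 37961119, minus strand, 9 exon blocks), the alternative small subunit, went the other way. In Ctrl it was at 96.9 and 118 CPM in early LPre-B and at 384 and 366 CPM in sPre-B cells. In the cells labelled cKO it was at 60.1 and 71.9 CPM in early LPre-B and at 292 and 346 CPM in sPre-B cells. It rose 3.495-fold in Ctrl (Log2FC 1.81, SE 0.14, adjusted P = 1.19e-05) and 4.84-fold in cKO (Log2FC 2.27, SE 0.14, adjusted P = 4.53e-06). Of its exon bases 5.70% are shared with *Gm49085* on the opposite strand, and the strand setting of the counting is not given in the sources used here, so that reads from there may belong to either gene.

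Set per kilobase of exon, the 2 small subunit genes changed places. In early LPre-B cells *Rrm2* was at 339 to 355 CPM per kb in Ctrl and 216 to 234 in cKO, and *Rrm2b* at 21.3 to 25.8 and 13.2 to 15.8 CPM per kb. In sPre-B cells *Rrm2* was at 14.4 to 28.4 CPM per kb in Ctrl and 28.9 to 33.7 in cKO, and *Rrm2b* at 80.2 to 84.1 and 64.1 to 75.9 CPM per kb. *Rrm2b* thus made up 5.65% and 7.07% of the summed level of both genes in the Ctrl early LPre-B libraries, and 74.7% and 84.8% in the Ctrl sPre-B libraries. In the libraries labelled cKO the share was 5.76% and 6.31% in early LPre-B and 68.9% and 69.3% in sPre-B cells. The shares of early LPre-B cells overlapped between genotypes, and in sPre-B cells both cKO libraries lay below both Ctrl libraries. The summed level of the small subunit genes was 1.95 to 2.35 times that of *Rrm1* in early LPre-B cells, 4.86 and 6.26 times in Ctrl sPre-B and 3.60 and 3.997 times in cKO sPre-B cells.

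**Figure D2:**
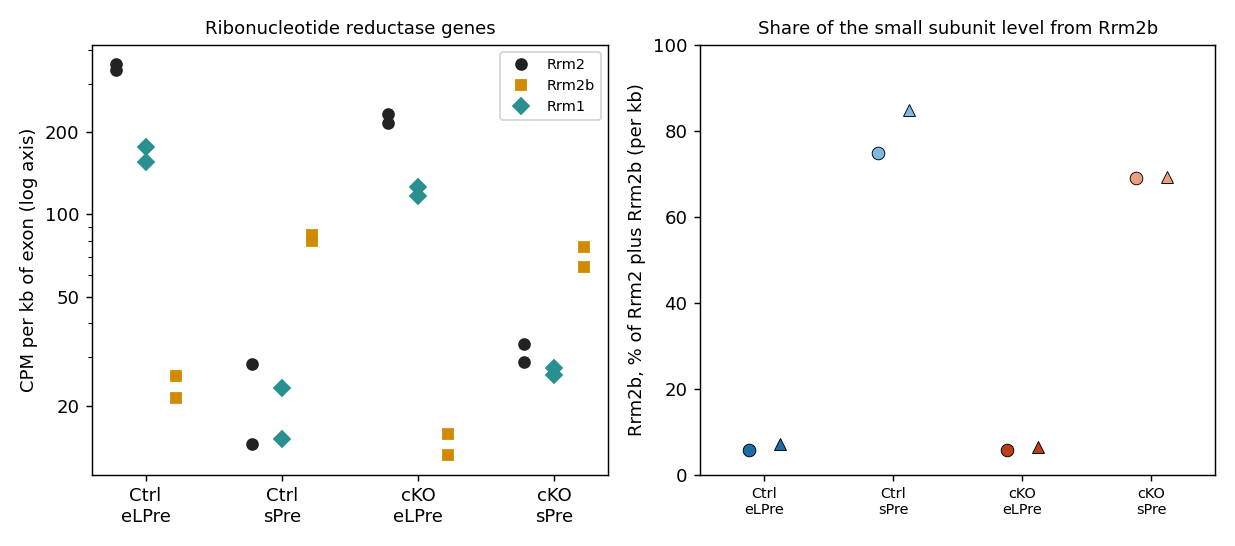
Left, level of *Rrm2*, *Rrm1* and *Rrm2b* in CPM per kb of exon (log axis) in each library of the 4 groups. Right, *Rrm2b* as a percentage of the summed *Rrm2* and *Rrm2b* level per kb in each library (circles: replicate 1, triangles: replicate 2), which is 5.65 to 7.07% in early LPre-B and 68.9 to 84.8% in sPre-B cells.

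Of the 3 thymidylate members, *Dut* and *Tyms* fell most. *Tyms* (Entrez 22171, chromosome 5, 30038546 to 30073645, minus strand, 7 exon blocks) encodes thymidylate synthase, which methylates dUMP to dTMP. In Ctrl it was at 151 and 110 CPM in early LPre-B and at 11.1 and 4.96 CPM in sPre-B cells. The cells labelled cKO had 181 and 210 CPM in early LPre-B and 22.1 and 27.9 CPM in sPre-B cells, so that at each stage both cKO libraries lay above both Ctrl libraries. *Tyms* fell 16.2-fold in Ctrl (Log2FC −4.02, SE 0.35, adjusted P = 2.00e-05) and 7.82-fold in cKO (Log2FC −2.97, SE 0.33, adjusted P = 7.83e-05). The Ctrl Log2FC was −4.65 without Ctrl sPre-B replicate 1 and −3.49 without replicate 2. A transcribed pseudogene, *Tyms-ps*, is listed in the table as a separate gene.

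*Dut* (Entrez 110074, chromosome 2, 125247248 to 125259049, 7 exon blocks) encodes dUTPase, which clears dUTP and yields the dUMP that thymidylate synthase uses. Its level was 212 and 178 CPM in Ctrl early LPre-B and 13.3 and 8.41 CPM in Ctrl sPre-B cells. Cells labelled cKO had 149 and 151 CPM in early LPre-B and 14.6 and 15.2 CPM in sPre-B cells. Its fall, 17.96-fold in Ctrl (Log2FC −4.17, SE 0.20, adjusted P = 1.47e-06) and 10.1-fold in cKO (Log2FC −3.33, SE 0.20, adjusted P = 3.45e-06), had the most negative Log2FC of the 9 genes in cKO. In Ctrl its Log2FC differed from those of *Tyms* and *Rrm2* by less than their SE, and without Ctrl sPre-B replicate 1 both lay below it (−4.65 and −4.52, against −4.47).

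*Tk1* (Entrez 21877, chromosome 11, 117815519 to 117826087, minus strand, 7 exon blocks), the cytosolic thymidine kinase, was at 96.7 and 82.8 CPM in Ctrl early LPre-B and 19.0 and 21.6 CPM in Ctrl sPre-B cells. In cKO it was at 116 and 108 CPM in early LPre-B and 36.2 and 30.1 CPM in sPre-B cells. The fall was 4.42-fold in Ctrl (Log2FC −2.15, SE 0.13, adjusted P = 3.29e-06) and 3.38-fold in cKO (Log2FC −1.76, SE 0.13, adjusted P = 7.61e-06). Of its exon bases 5.76% overlap *Afmid* on the opposite strand.

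*Dck* (Entrez 13178, chromosome 5, 88765013 to 88783277, 7 exon blocks) encodes deoxycytidine kinase, which phosphorylates deoxycytidine and purine deoxynucleosides and is known to be needed for lymphocyte development. It changed least between the stages, from 446 and 460 CPM to 243 and 239 CPM in Ctrl and from 196 and 254 CPM to 85.1 and 136 CPM in cKO. The fall was 1.88-fold in Ctrl (Log2FC −0.91, SE 0.21, adjusted P = 0.00470) and 2.04-fold in cKO (Log2FC −1.03, SE 0.21, adjusted P = 0.00244). Without both Ctrl replicate 2 libraries the Ctrl fall did not pass the test (Log2FC −0.81, adjusted P = 0.0925).

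Both de novo pyrimidine enzymes fell in each genotype. *Cad* (Entrez 69719, chromosome 5, 31054620 to 31078479, 44 exon blocks) encodes the multifunctional protein of the opening steps of the pathway. It went from 216 and 166 CPM to 51.1 and 52.0 CPM in Ctrl, and from 227 and 225 CPM to 72.2 and 63.2 CPM in cKO. The fall was 3.71-fold in Ctrl (Log2FC −1.89, SE 0.13, adjusted P = 6.69e-06) and 3.34-fold in cKO (Log2FC −1.74, SE 0.13, adjusted P = 1.02e-05).

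*Umps* (Entrez 22247, chromosome 16, 33954782 to 33967038, minus strand, 6 exon blocks), whose enzyme completes UMP, went from 98.3 and 84.2 CPM to 18.1 and 15.8 CPM in Ctrl. In cKO it went from 98.2 and 92.0 CPM to 21.6 and 19.8 CPM. The fall was 5.38-fold in Ctrl (Log2FC −2.43, SE 0.12, adjusted P = 1.37e-06) and 4.59-fold in cKO (Log2FC −2.20, SE 0.11, adjusted P = 2.07e-06). Of its exon bases 6.11% overlap *Gm15829* on the opposite strand.

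The order of the 9 genes by mean level per kb of exon also changed between the stages. In Ctrl early LPre-B cells *Rrm2* came first with 347 CPM per kb, followed by *Rrm1* with 166, *Dck* with 147, *Dut* with 90.2, *Tk1* with 62.3 and *Tyms* with 41.3, while *Cad* (26.4), *Umps* (26.2) and *Rrm2b* (23.5 CPM per kb) lay close together. In Ctrl sPre-B cells *Rrm2b* (82.1) and *Dck* (78.2) led, *Rrm2* (21.4), *Rrm1* (19.1) and *Tk1* (14.1) followed, and *Cad* (7.11), *Dut* (5.01), *Umps* (4.87) and *Tyms* (2.54 CPM per kb) came last. The libraries of *Cad*, *Umps* and *Rrm2b* overlapped in the first order, and those of *Rrm2* with *Rrm1* and with *Tk1* and of *Dut* with *Umps* in the second. In that second order the 2 replicates differed 2.24-fold for *Tyms*, 1.97-fold for *Rrm2*, 1.58-fold for *Dut* and 1.53-fold for *Rrm1*.

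The second question was what differed between the genotypes at each stage. In early LPre-B cells 2 of the 9 genes, *Dck* and *Rrm2b*, were lower in cKO and 0 were higher, against 16.9% and 14.5% of all genes tested. An unadjusted P under 0.05 was found for 5 of the 9 and for 42.7% of all genes. *Dck* was at 225 ± 41.3 CPM in cKO and 453 ± 10.4 CPM (SD, n = 2) in Ctrl (Log2FC −1.01, SE 0.21, adjusted P = 0.00717). *Rrm2b* was at 66.0 ± 8.28 against 107 ± 14.5 CPM (SD, n = 2; Log2FC −0.70, SE 0.14, adjusted P = 0.00611). Both cKO libraries lay below both Ctrl libraries for each. Each call was lost without cKO early LPre-B replicate 1 (adjusted P = 0.0579 for *Dck* and 0.0546 for *Rrm2b*) and without both Ctrl replicate 2 libraries (0.0585 and 0.0548), a fit in which *Rrm1*, *Rrm2* and *Dut* were called lower instead (0.0213, 0.0211 and 0.0181). The balance of calls over all genes was not stable either: 46.2% of them were higher in cKO, and 56.1% in a fit of only the 4 libraries compared.

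Of the other 7 genes in early LPre-B cells, *Rrm1*, *Rrm2* and *Dut* had lower means in cKO, with Log2FC of −0.45, −0.62 and −0.38 (adjusted P = 0.0926, 0.0982 and 0.139). *Rrm1* and *Rrm2* passed the test in 6 of the 16 alternatives run, DESeq2 among them (adjusted P = 0.0445 and 0.0294), and *Dut* in 3. *Tyms*, *Tk1* and *Cad* had higher means, with Log2FC of 0.58, 0.32 and 0.24 (adjusted P = 0.181, 0.0807 and 0.189), and passed in 3, 1 and 1 of the alternatives. The size of some rested on single Ctrl early LPre-B libraries: without replicate 1 and without replicate 2 the Log2FC was 0.87 and 0.42 for *Tyms*, 0.48 and 0.11 for *Cad* and −0.21 and −0.45 for *Dut*. *Umps* had a Log2FC of 0.06 (SE 0.11, adjusted P = 0.720; 0.21 without Ctrl early LPre-B replicate 1) and overlapping libraries. The libraries of the 2 genotypes did not overlap for 8 of the 9 genes, 3 higher and 5 lower in cKO, beside 29.9% and 36.4% of all genes. Of the 12 cycling markers 1, *Pcna*, was lower in cKO (Log2FC −0.48, SE 0.15, adjusted P = 0.0371) and 0 were higher, with a median Log2FC of −0.43. Other markers also differed between the genotypes at this stage. Lower in cKO were 4 of 10 B-lineage markers, among them *Rag1* (409 and 385 CPM in Ctrl, 44.0 and 75.0 in cKO), and 2 of 8 myeloid markers. Of 4 stage markers, *Kit* (18.7 and 15.1 against 3.84 and 2.08 CPM), *Spn* and *Il2ra* were lower and *Cd2* was not called. *Il2ra* and *Cd2* were higher in sPre-B cells, so *Il2ra* is no marker of the earlier stage. *Klrb1c*, *Hbb-bs* and *Sdc1*, each the 1 called of the T and NK cell, erythroid and plasma cell markers, were lower too (Log2FC −2.29, −1.61 and −0.88). In each of these lists 0 were higher. Their part in the differences of the 9 genes was not tested.

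In sPre-B cells 3 of the 9 genes, *Tyms*, *Tk1* and *Cad*, were higher in cKO and 1, *Dck*, was lower, against 19.8% and 14.9% of all genes tested. An unadjusted P under 0.05 was found for 7 of the 9 and for 44.9% of all genes. *Tyms* was at 25.0 ± 4.12 CPM in cKO and 8.03 ± 4.34 CPM (SD, n = 2) in Ctrl, 3.10-fold higher (Log2FC 1.63, SE 0.32, adjusted P = 0.00523). *Tk1* was at 33.1 ± 4.32 against 20.3 ± 1.80 CPM (SD, n = 2), 1.63-fold higher (Log2FC 0.71, SE 0.12, adjusted P = 0.00306). *Cad* was at 67.7 ± 6.42 against 51.6 ± 0.634 CPM (SD, n = 2; Log2FC 0.39, SE 0.13, adjusted P = 0.0442). *Dck* was at 111 ± 36.0 against 241 ± 2.59 CPM (SD, n = 2), 2.18-fold lower (Log2FC −1.12, SE 0.21, adjusted P = 0.00389).

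The *Tyms*, *Tk1* and *Dck* calls in sPre-B cells held in all 16 alternatives run, with an adjusted P of at most 0.0258, 0.0297 and 0.0282, while the size of the *Tyms* difference went from a Log2FC of 1.14 without Ctrl sPre-B replicate 2 to 2.30 without Ctrl sPre-B replicate 1. The *Cad* call was lost in 8 of the 16 alternatives (adjusted P = 0.0570 to 0.247). The other 5 genes did not pass the test: *Rrm1*, *Rrm2*, *Dut* and *Umps* had Log2FC of 0.48, 0.55, 0.45 and 0.29 (adjusted P = 0.0750, 0.137, 0.0893 and 0.0769), and *Rrm2b* −0.23 (adjusted P = 0.228). The size of the first 4 rested on single Ctrl sPre-B libraries: the Log2FC without replicate 2 and without replicate 1 were 0.16 and 0.78 for *Rrm1*, 0.10 and 1.08 for *Rrm2*, 0.13 and 0.79 for *Dut* and 0.16 and 0.35 for *Umps*, and without replicate 1 those of *Rrm1*, *Rrm2* and *Dut* passed the test. *Rrm1* also passed by DESeq2 (adjusted P = 0.0446) and by edgeR's likelihood-ratio test (adjusted P = 0.0484). The libraries of the 2 genotypes did not overlap for all 9 genes, 7 higher and 2 lower in cKO, beside 36.5% and 34.3% of all genes. In the same comparison 5 of the 12 cycling markers were higher in cKO and 0 were lower, with a median Log2FC of 0.61, among them *Bub1* (Log2FC 1.38, SE 0.20, adjusted P = 0.00111) and *Plk1* (Log2FC 0.74, SE 0.21, adjusted P = 0.0273). Of the 10 B-lineage markers 2 were higher in cKO, *Vpreb1* and *Igll1* (Log2FC 0.88 and 0.66, adjusted P = 0.0131 and 0.0210), and 3 were lower, *Cd79a*, *Rag1* and *Ebf1* (Log2FC −2.08, −1.06 and −0.80). *Itgam*, *Hbb-bs* and *Sdc1*, each the 1 called of the myeloid, erythroid and plasma cell markers, were lower too (Log2FC −0.46, −1.51 and −0.96). What part these have in the differences of the 9 genes was not tested.

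**Figure D3:**
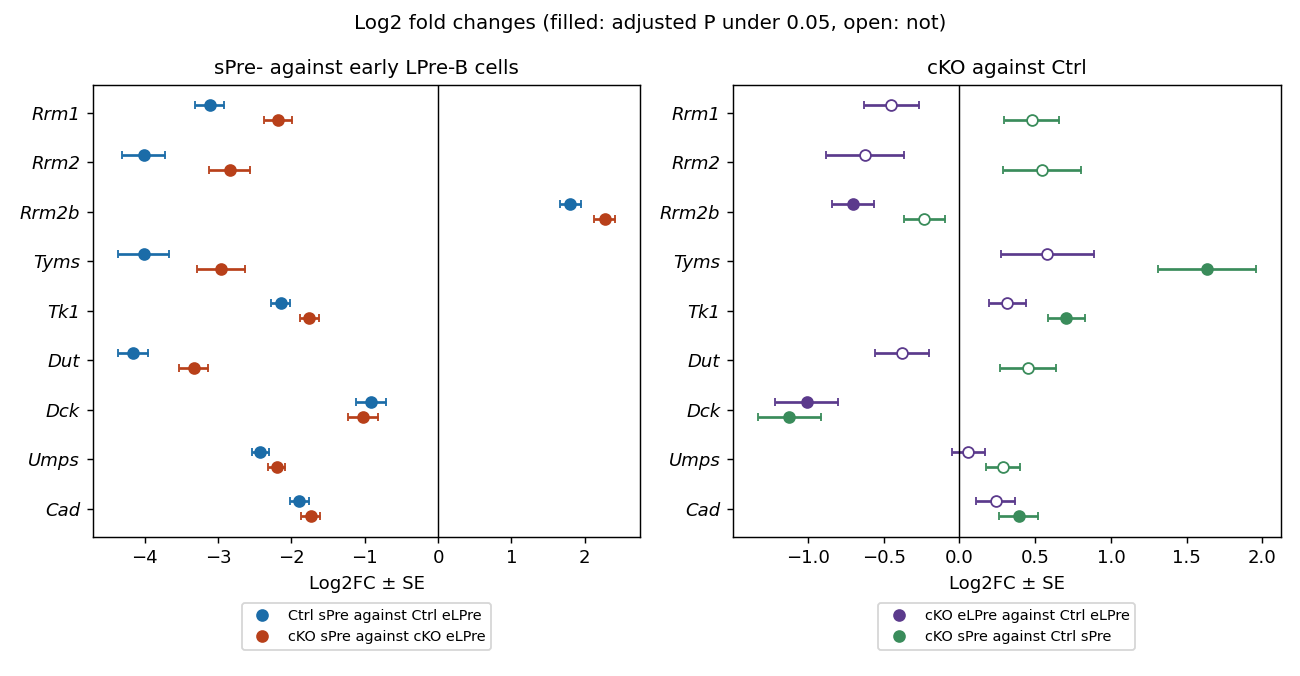
Log2 fold change with its SE (edgeR, 2 libraries per group) of the 9 genes, left in sPre- against early LPre-B cells of each genotype and right in cKO against Ctrl at each stage, with filled points at an adjusted P under 0.05 and open points otherwise. On the left all 18 points are filled and only *Rrm2b* lies above 0. On the right *Dck* lies near −1 at both stages, and *Tyms* in sPre-B cells lies at 1.63.

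The third question was whether the change between the stages differed between the genotypes. The mean level left in sPre-B cells, as a percentage of early LPre-B cells, was 6.18% in Ctrl and 13.9% in cKO for *Rrm2*, and 11.5% and 21.9% for *Rrm1*. It was 6.15% and 12.8% for *Tyms* and 5.56% and 9.92% for *Dut*. For *Tk1* it was 22.6% and 29.6%, for *Umps* 18.6% and 21.8%, for *Cad* 27.0% and 30.0%, and for *Dck* 53.1% and 49.1%. *Rrm2b* reached 349% and 484%.

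The interaction of stage and genotype, the test of that difference, called 0 of the 9 genes, against 2.64% of all genes called higher and 1.6% lower. Here 5 of the 9 and 20.8% of all genes had an unadjusted P under 0.05. The Log2FC difference (cKO minus Ctrl) was 1.17 for *Rrm2* (SE 0.36, adjusted P = 0.112), 1.05 for *Tyms* (SE 0.44, adjusted P = 0.218), 0.93 for *Rrm1* (SE 0.26, adjusted P = 0.0830) and 0.83 for *Dut* (SE 0.26, adjusted P = 0.108). The median over the 9 was 0.47, beside 0.07 over all genes and 0.996 over the 12 cycling markers, of which 1, *Bub1*, was called (Log2FC difference 1.26, adjusted P = 0.0415). DESeq2 and edgeR's likelihood-ratio test each called 3 of the 9, *Rrm1*, *Rrm2* and *Dut*, and over all genes they called 1758 and 1508, against 750 in the quasi-likelihood test. A block for replicate within genotype, which pairs same-numbered libraries of the 2 stages, called *Rrm1*, *Rrm2*, *Tyms* and *Dut* (adjusted P = 0.0117, 0.0272, 0.0184 and 0.0135), and 2142 of all genes. Without Ctrl sPre-B replicate 1 the quasi-likelihood test called 4, these 3 and *Tyms*, with differences of 1.66 for *Rrm2*, 1.67 for *Tyms*, 1.19 for *Rrm1* and 1.12 for *Dut*. Without Ctrl sPre-B replicate 2 the differences were 0.68, 0.51, 0.57 and 0.47, and it called none of these 4 (adjusted P = 0.113, 0.417, 0.152 and 0.210).

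**Figure D4:**
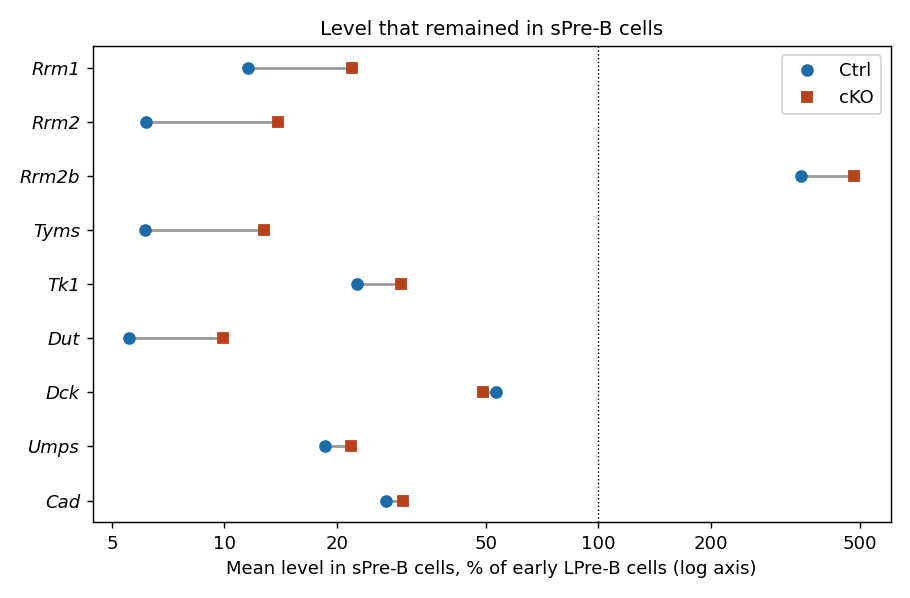
Mean level in sPre-B cells as a percentage of the mean in early LPre-B cells (log axis) for each gene, in Ctrl (blue circles) and cKO (red squares), with the dotted line at 100%. The cKO point lies to the right of the Ctrl point for *Rrm2* (6.18% in Ctrl and 13.9% in cKO) and to the left for *Dck* (53.1% and 49.1%).

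Since the cycling markers moved with stage and genotype, each gene was also set against their summed level in the same library, a ratio chosen after the data were seen and given without a test. *Rrm1* was at 55.9 to 70.0 CPM per 1000 CPM of cycling markers in all 8 libraries, while its CPM ranged from 60.4 to 706. *Rrm2* was at 64.4 to 74.1 in early LPre-B and 36.7 to 40.6 in sPre-B cells, and *Dut* at 16.04 to 20.2 and 8.22 to 9.75. The libraries of the 2 genotypes overlapped at each stage for *Rrm1* and *Dut*. For *Rrm2* they did not, with 66.9 and 74.1 in Ctrl against 64.4 and 66.4 in cKO early LPre-B cells, and 36.7 and 38.6 against 40.1 and 40.6 in sPre-B cells.

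The *Tyms* libraries also lay apart by genotype. Per 1000 CPM of cycling markers it was at 14.4 and 9.90 in Ctrl and 24.7 and 27.1 in cKO early LPre-B cells, and at 6.88 and 5.76 in Ctrl and 14.1 and 15.2 in cKO sPre-B cells, so that both cKO libraries lay above both Ctrl libraries at each stage. *Dck* was lower in both cKO libraries at each stage, at 26.7 and 32.9 against 42.5 and 41.5 in early LPre-B and at 54.5 and 73.9 against 150 and 277 in sPre-B cells. *Tk1* was at 15.8 and 13.9 in cKO against 9.21 and 7.46 in Ctrl early LPre-B cells, and overlapped in sPre-B cells, at 23.2 and 16.3 against 11.8 and 25.0. *Cad* and *Umps* were likewise higher in both cKO early LPre-B libraries (29.1 to 30.9 against 14.97 to 20.6, and 11.9 to 13.4 against 7.59 to 9.36) and overlapped in sPre-B cells. *Rrm2b* overlapped in early LPre-B cells (8.19 to 10.6) and was lower in both cKO sPre-B libraries, at 187 and 188 against 238 and 424. The share of all genes whose libraries lie apart by this ratio was not counted. By plain CPM it was large: 29.9% higher and 36.4% lower in cKO at the earlier stage. At the later stage it was 36.5% higher and 34.3% lower. Libraries lying apart are thus no evidence by themselves of a genotype difference in this ratio.

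**Figure D5:**
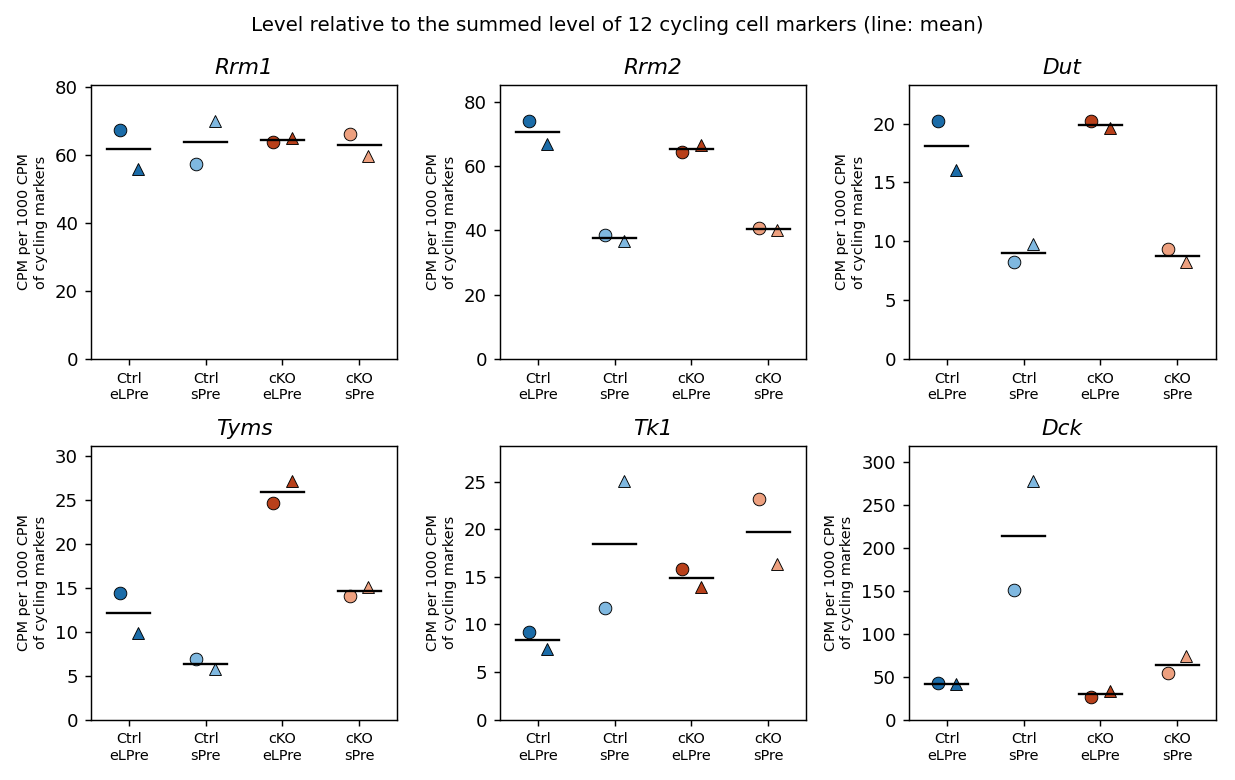
Level of 6 of the genes per 1000 CPM of the summed 12 cycling markers in each library (circles: replicate 1, triangles: replicate 2, line: mean, axes from 0). *Rrm1* stays between 55.9 and 70.0 in all 8 libraries, *Rrm2* and *Dut* separate by stage, and *Tyms* is above Ctrl in both cKO libraries of each stage.

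Other genes of the same pathways were counted by fixed lists. Over all genes tested, 29.1% rose and 31.1% fell between the stages in Ctrl and 31.6% and 31.1% in cKO, while in cKO against Ctrl 14.5% were higher and 16.9% lower in early LPre-B and 19.8% and 14.9% in sPre-B cells, and a count near these shares is no result about a list. From each list the genes named by the rule are given, with a few others, chosen after their values were seen, that complete a small count. Of 7 other genes of thymidylate and deoxyuridylate metabolism, 6 fell and 1 rose between the stages in each genotype, and 3 were higher and 0 lower in cKO at each stage. *Dctd*, which deaminates dCMP to dUMP, was at 5.26 ± 0.728 CPM in early LPre-B and 0.116 ± 0.00336 CPM (SD, n = 2) in sPre-B cells of Ctrl (Log2FC −5.49, adjusted P = 1.23e-06), and was higher in cKO early LPre-B cells (10.5 ± 0.463 CPM, SD, n = 2; Log2FC 1.003, adjusted P = 0.00400). *Dctpp1*, a dCTP pyrophosphatase, fell with a Log2FC of −3.13 in Ctrl and −2.98 in cKO. *Tk2*, the mitochondrial thymidine kinase, was the 1 that rose, with Log2FC of 1.46 in Ctrl (adjusted P = 3.57e-06) and 0.90 in cKO (adjusted P = 3.76e-05), while its cytosolic counterpart *Tk1* fell. It was higher in cKO early LPre-B cells (Log2FC 0.79, adjusted P = 0.000381), and its interaction was negative (−0.56, adjusted P = 0.0429). In sPre-B cells *Shmt1*, the cytosolic serine hydroxymethyltransferase that supplies carbon units, and *Dtymk*, the kinase that acts on dTMP, were higher in cKO, with Log2FC of 1.08 (adjusted P = 0.00167) and 0.88 (adjusted P = 0.000221). *Dtymk* was also higher in cKO early LPre-B cells (Log2FC 0.59, adjusted P = 0.00165).

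Of 9 other genes of de novo pyrimidine synthesis and phosphorylation, 6 fell and 1, *Ctps2*, rose between the stages in each genotype (Log2FC 0.72 in Ctrl and 0.76 in cKO). *Ctps*, a CTP synthase, fell with Log2FC of −2.51 in Ctrl and −2.20 in cKO, and *Nme4*, of the nucleoside diphosphate kinase family, with −3.43 and −3.05. In cKO early LPre-B cells 0 were higher and 1 was lower, *Cmpk1*, the UMP and CMP kinase (Log2FC −0.77, adjusted P = 0.000825). In cKO sPre-B cells 3 were higher, *Nme4* (Log2FC 0.93, adjusted P = 0.0348), *Nme6* (Log2FC 0.74, adjusted P = 0.0107) and *Ctps* (Log2FC 0.40, adjusted P = 0.0297), and 1, again *Cmpk1*, was lower (Log2FC −0.61, adjusted P = 0.00210).

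Of 13 salvage and breakdown genes that could be tested (of 16 listed), 8 fell in each genotype, and 3 rose in Ctrl and 4 in cKO. *Samhd1*, which breaks down deoxynucleoside triphosphates, rose from 66.4 ± 4.30 to 531 ± 2.13 CPM (SD, n = 2) in Ctrl (adjusted P = 9.08e-07) and with a Log2FC of 2.54 in cKO (adjusted P = 1.34e-06), in the same libraries in which the synthesis genes fell, and was lower in cKO sPre-B cells (Log2FC −0.43, adjusted P = 0.0160). *Uckl1*, a relative of *Uck2*, also rose in both genotypes (adjusted P = 6.24e-05 in Ctrl and 4.71e-05 in cKO). *Adk*, adenosine kinase, fell with a Log2FC of −2.58 in Ctrl and −3.17 in cKO, and *Uck2*, a uridine and cytidine kinase, with −2.49 and −2.78. In cKO against Ctrl 4 were higher and 2 lower in early LPre-B cells, and 3 were higher and 4 lower in sPre-B cells. *Uckl1* was higher at both stages (Log2FC 0.78 and 0.84, adjusted P = 0.00345 and 0.00197), *Aprt*, the adenine salvage enzyme, was higher in early LPre-B cells (Log2FC 0.86, adjusted P = 0.0125), and *Adk* was lower in sPre-B cells (Log2FC −0.84, adjusted P = 0.0102).

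Of the 15 de novo purine synthesis genes, 13 fell in Ctrl and 11 in cKO, with 1 rising in each. *Impdh1*, which opens the GMP branch, fell with Log2FC of −2.98 and −2.88, and *Ppat*, which commits the pathway, with −2.68 and −2.62. In cKO 3 were higher and 1 lower in early LPre-B cells, and 5 higher and 2 lower in sPre-B cells, among them *Pfas* (Log2FC 0.45 and 0.56, adjusted P = 0.0122 and 0.00419) and *Adsl* (Log2FC 0.52 and 0.55, adjusted P = 0.00979 and 0.00751), enzymes of intermediate steps.

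Because *Rrm2b* is a known p53 target, 14 other p53 targets were listed, of which 13 could be tested. Between the stages 6 rose and 3 fell in Ctrl, and 9 rose and 2 fell in cKO. *Cdkn1a*, a cyclin-dependent kinase inhibitor, and *Gtse1* fell in each genotype, with Log2FC of −3.55 and −2.89 in Ctrl and −1.56 and −1.97 in cKO, while *Rrm2b* rose. *Btg2*, an antiproliferative gene, and *Zmat3* rose in each genotype, with Log2FC of 2.40 and 1.61 in Ctrl and 3.31 and 3.04 in cKO. In cKO against Ctrl 5 were higher and 3 lower in early LPre-B cells, and 9 were higher and 0 lower in sPre-B cells, where *Rrm2b* had a Log2FC of −0.23. *Bbc3*, which encodes the death-promoting protein PUMA, and *Phlda3* were higher in cKO at both stages, with Log2FC of 1.80 and 1.602 in early LPre-B (adjusted P = 0.000125 and 0.00212) and 2.78 and 3.37 in sPre-B cells (adjusted P = 1.98e-05 and 8.68e-05). The 3 that were lower in cKO early LPre-B cells, as *Rrm2b* was, were *Mdm2*, *Trp53inp1* and *Btg2* (Log2FC −0.42, −1.36 and −1.22). The interaction called 5 of the 13 higher and 0 lower, beside 2.64% and 1.6% of all genes, among them *Cdkn1a* (1.99, adjusted P = 0.00384) and *Zmat3* (1.43, adjusted P = 0.0426).

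The genes whose log2 CPM over the 8 libraries ran closest to each member were listed as a description, with Pearson's r, since libraries of the same group share their stage and genotype. *Rrm1* ran closest to *Ercc6l*, *Zfp41* and *Rrm2*, and *Rrm2* to *Tacc3*, *Ncaph* and *Ercc6l*, all with r above 0.999. *Dut* ran closest to *Anp32b*, *Dnmt1* and *Snrpd1*, likewise above 0.999. *Tyms* ran closest to *Car2*, *Srd5a1* and *Pole* (r = 0.997 to 0.998), *Umps* to *Gart*, *Cdca7l* and *Ppat* (0.999 each), and *Cad* to *Rab27a*, *Pelp1* and *Rfc2* (0.998 to 0.999). *Tk1* ran closest to *Nlgn2*, *Myc* and *Nelfe* (0.997 to 0.998), *Rrm2b* to *Spin1*, *Carmil1* and *Cerk* (0.998 each), and *Dck* to *Mapk6*, *Atf2* and *Gclc* (0.990 to 0.992), the lowest values of the 9.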

How the data were processed

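RNA of the sorted cells was depleted of ribosomal RNA and sequenced from directional libraries. The authors used Trim Galore for trimming, HISAT2 for paired-end, unstranded alignment to mm10 and featureCounts for counting, and deposited the whole-number counts per gene (versions not given in the sources used here). Genes are listed by Entrez identifier; 25275 of 27179 were named from RefSeq. Exon lengths, overlaps and gene positions came from GENCODE and RefSeq on the same build.

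The test was that of edgeR 4.0.16 in R 4.3.3 (TMM factors 0.862 to 1.09, filter by group, 17700 genes, 1 mean per group over 8 libraries, common biological coefficient of variation 0.174, two-sided quasi-likelihood F test, Benjamini-Hochberg adjustment over all genes tested). Adjusted P under 0.05 was the threshold. Alternatives included DESeq2 1.42.0. The members and lists were chosen with earlier results of these data known. From each list, at most 2 genes per comparison were named, those with the largest absolute Log2FC among genes that passed the test and had 50 or more counts in every higher library; for each member, the 3 most correlated genes (log2 CPM, prior count 2). Replicates differed by more than counting error, and P-values measure only the spread between the 2 libraries of each group, which the labels do not tie to separate animals. In Ctrl, replicates 1 and 2 differed in *Xist* and Y-linked transcripts and so came from different mice. The paper describes its data points as independent biological replicates. Counts were simulated for the Ctrl stage comparison (17430 genes), with 99 genes changed by each size and all others at 1 mean in every group. Of genes changed by a Log2FC of 1, 57.6% were recovered, and 90.9% of those changed by 3. There were 0 in the wrong direction, and 10 unchanged genes were called. In the data 10649 of 17700 genes were called in that comparison, so that recovery there may differ.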

Additional observations from a re-analysis of the deposited data

How the results depend on the processing

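All 9 stage calls in cKO, and all in Ctrl but that of *Dck*, held in the 17 alternatives run. In early LPre-B cells, cKO against Ctrl, 0 members were higher and 2 lower; a fit of only the 4 libraries compared gave 2 and 4, DESeq2 gave 4 lower and no filter on low counts 4 lower, and leaving out 1 library gave 0 to 1 higher and 0 to 5 lower (0 lower without cKO early LPre-B replicate 1). In sPre-B cells 3 were higher; without the filter there were 6, and leaving out 1 library gave 2 to 5 (5 without Ctrl sPre-B replicate 1). The interaction called 0 higher in the quasi-likelihood fit, 3 by the likelihood-ratio test, 3 by DESeq2, 4 without the filter and 4 with a block for replicate within genotype, and 0 to 4 when 1 library was left out. The interaction of *Dck*, −0.11, ranged from −0.49 to 0.18 when 1 library was left out (0.08 without cKO early LPre-B replicate 2, 0.18 without cKO sPre-B replicate 1), and that of *Cad*, 0.15, from −0.12 (without Ctrl early LPre-B replicate 1) to 0.24. The cause was not tested. The labels give same-numbered libraries only a shared number, while in Ctrl both replicate 2 libraries also carried the Y-linked transcripts. Their deviations from the group means correlated across genes by 0.395 and 0.254 between stages of Ctrl and cKO and by 0.155 and 0.0858 between genotypes. With the replicate number as a block, sPre-B cells had 4 members higher (*Umps* added, adjusted P = 0.0272) and 1 lower, early LPre-B cells 0 and 2, each stage comparison 1 and 8 and the interaction 0. Over all genes, the number called by the interaction was 750, and between 92 and 2142 in the alternatives. Its share of higher calls was 62.3%, and 48.8% and 51.7% without Ctrl early LPre-B replicates 1 and 2. In early LPre-B cells, cKO against Ctrl, that share was 46.2%, and 46.1% to 56.1% in the alternatives. Calls over all genes in cKO against Ctrl were 5547 in early LPre-B cells (2923 and 3511 without cKO replicates 1 and 2) and 6134 in sPre-B cells (3624 without cKO replicate 1). A fit that left out 1 library took the lone sample of that group to vary like the other groups. Recovery with 2 libraries per group was checked for the Ctrl stage comparison only.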
